A study of Mus musculus with 2 samples.

Results

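The epithelial sodium channel and its regulators were followed in cultured mouse keratinocytes through 8 genes, of 18193 genes with a single symbol on the array. The genes were chosen by name, with earlier results of the same arrays known: the channel subunits Scnn1a, Scnn1b and Scnn1g, the regulators Nedd4l and Sgk1, the sodium pump subunits Atp1b1 and Atp1b3, and the glycerol channel gene Aqp3. All probe sets whose only platform symbol was that of a member were taken, 20 in all. A probe set gathers several short probes against the same transcript into a single signal. The values that chose the members are those described here, so they are given as a description, without a test.

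The series compared 2 primary cultures of newborn C57BL/6 keratinocytes, each on 1 Affymetrix GeneChip array. The culture labelled MED1-null came from K5Cre+;MED1flox/flox mice (MED1epi-/-), in which Cre recombinase, made under the promoter of keratin 5, is meant to delete the floxed Med1 gene in keratinocytes. The control culture came from MED1flox/flox mice, named control littermate in the title of the series and wild-type in the source label. Both cultures were grown in CnT07 medium on type I collagen and received no other treatment, and the labels do not say how many animals went into either. MED1 belongs to Mediator, through which transcription factors act on RNA polymerase II.

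In many epithelia the channel, built from alpha, beta and gamma subunits, lets sodium enter the cell from the outer side, and the sodium-potassium pump moves it out on the inner side. The ubiquitin ligase NEDD4L binds the channel and marks it for removal from the membrane, and the kinase SGK1, whose gene is induced through corticosteroid receptors, phosphorylates NEDD4L and so holds it off the channel. Serine proteases such as prostasin, the product of Prss8, cleave the channel and raise its activity. In epidermis the alpha subunit and prostasin are known from mouse knockouts to be needed for the skin barrier, and AQP3 carries water and glycerol into keratinocytes.

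Promoter sequences are shown for the 3 genes with the lowest ratios, Scnn1b, Scnn1g and Atp1b1, and for Aqp3, which was higher by less than 2-fold. Sequences at genes of opposite direction can thus be read beside their values. From the RefSeq promoter table (GRCm38.p6), 12 windows for 6 of the 8 members were taken, among them 6 for Sgk1 and 2 for Atp1b3. No window of Scnn1a or Nedd4l was read, and for Nedd4l this does not show that the table lacks one. Each window runs from 250 bases before a transcription start to 50 bases after it. Capitals mark matches on either strand to AGGTCA (a nuclear receptor hexamer), TGTTCT (a hexamer of the glucocorticoid response element), GGGCGG (the GC box), CCAAT and TATAAA.
Scnn1b, chr7:121864788-121865087, plus strand: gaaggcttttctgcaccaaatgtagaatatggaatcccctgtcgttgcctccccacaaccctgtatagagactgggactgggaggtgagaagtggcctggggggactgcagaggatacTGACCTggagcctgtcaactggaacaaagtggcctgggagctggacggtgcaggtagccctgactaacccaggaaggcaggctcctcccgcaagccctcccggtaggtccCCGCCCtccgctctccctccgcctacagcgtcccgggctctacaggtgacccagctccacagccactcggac
Scnn1g, chr7:121734229-121734528, plus strand: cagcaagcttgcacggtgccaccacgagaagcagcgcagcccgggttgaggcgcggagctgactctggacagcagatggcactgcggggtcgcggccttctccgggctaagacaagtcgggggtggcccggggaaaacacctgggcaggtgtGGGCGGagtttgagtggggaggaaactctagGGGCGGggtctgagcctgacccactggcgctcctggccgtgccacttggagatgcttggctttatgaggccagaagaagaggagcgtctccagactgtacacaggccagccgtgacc
Atp1b1, chr1:164458306-164458605, minus strand: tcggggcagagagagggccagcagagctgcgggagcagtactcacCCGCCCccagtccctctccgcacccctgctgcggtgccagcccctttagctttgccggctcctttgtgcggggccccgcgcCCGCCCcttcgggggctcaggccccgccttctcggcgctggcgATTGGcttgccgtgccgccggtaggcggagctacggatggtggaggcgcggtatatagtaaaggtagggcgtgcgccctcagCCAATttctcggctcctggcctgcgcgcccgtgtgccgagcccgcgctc
Aqp3, chr4:41098134-41098433, minus strand: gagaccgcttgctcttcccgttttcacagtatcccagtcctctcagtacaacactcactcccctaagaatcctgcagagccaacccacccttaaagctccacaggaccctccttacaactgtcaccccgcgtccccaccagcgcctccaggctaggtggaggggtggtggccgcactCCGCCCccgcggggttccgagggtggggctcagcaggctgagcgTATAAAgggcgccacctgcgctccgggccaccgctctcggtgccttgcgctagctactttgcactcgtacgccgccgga

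The windows of Scnn1b and Scnn1g held GGGCGG but neither CCAAT nor TATAAA. That of Scnn1b held 1 GGGCGG match and 1 AGGTCA match, which was read on the opposite strand and began at position -132 from the start site. That of Scnn1g held 2 GGGCGG matches. Atp1b1 had 2 GGGCGG and 2 CCAAT matches, and Aqp3 had 1 GGGCGG match and a TATAAA beginning at position -29. Atp1b3, which was near level and is not shown, had 6 GGGCGG matches in one window and none in the other. Of 32851 promoter windows of this length, 35.7% held GGGCGG, 37.4% CCAAT, 19.0% TGTTCT, 16.3% AGGTCA and 13.6% TATAAA. The windows shown above held from 61.7% (Scnn1b) to 71.0% (Atp1b1) G and C bases, against a median of 52.7% over all windows. Whether motifs or base content bear on the ratios was not tested. A window of Sgk1 is shown because Sgk1 is known as a corticosteroid target gene and the window holds the palindromic glucocorticoid response element, in which TGTTCT follows its own reverse complement after 3 bases. Capitals mark this element alone and leave out other matches in the window.
Sgk1, chr10:21993640-21993939, plus strand: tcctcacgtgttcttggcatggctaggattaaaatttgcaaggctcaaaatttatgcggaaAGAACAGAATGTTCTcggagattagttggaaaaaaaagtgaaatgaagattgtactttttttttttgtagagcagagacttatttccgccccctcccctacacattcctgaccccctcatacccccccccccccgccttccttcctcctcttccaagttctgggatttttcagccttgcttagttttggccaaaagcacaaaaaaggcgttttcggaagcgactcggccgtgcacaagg

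The palindrome, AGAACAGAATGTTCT, began at position -189 from that start, and it contains TGTTCT once on each strand. Only 3 of the 32851 windows held the full element, or 0.00913%. A match to letters is a description of the window and not evidence that a factor binds there.

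Keratins of basal keratinocytes gave high signals on both arrays. Krt5 and Krt14, the keratins of the basal layer, read 32220 and 36849 on the MED1-null-labelled array, against 26821 and 32905 on the control array. Of the suprabasal keratins, Krt1 was below the floor on both and Krt10 read 251 on the MED1-null-labelled array and 195 on the control array. The floor, 67.7, is the median signal of all non-control probe sets over both arrays. Signals under it were raised to it before ratios were taken, and a gene is called measured when it reached the floor on at least 1 array. Med1 itself read 1039 on the MED1-null-labelled array and 463 on the control array (2.24-fold higher), and of its 7 probe sets the 6 at or over the floor on at least 1 array were all higher there, against what the label would give. Which part of the gene was deleted is not stated in the labels, so these signals do not check the deletion. Whether the 2 labels were exchanged, which would turn every direction below, was not tested. That array is therefore named by its label throughout, and each direction below is the direction of the labels. The arrays also differed in the sex-linked RNAs Xist (55.7 against 5461 on the control array) and Eif2s3y (2164 against 4.2), so sex and genotype label cannot be told apart. Of 11621 measured genes, 259 were at least 2-fold lower and 190 at least 2-fold higher on the MED1-null-labelled array. The lower ones made up 57.7% of these 449, 69.2% after a lowess curve had been subtracted, 45.5% under a floor at the 25th percentile and 46.0% without a floor, so the majority direction turned with the floor. With 1 array per group there is no spread between cultures and no test, and the low number of arrays sets the precision of every value. Between probe sets of the same gene the pooled SD was 0.31 log2 units (1.24-fold) over 4916 genes, which covers probe sets and not animals or cultures.

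All 3 channel subunit genes read lower on the MED1-null-labelled array. Scnn1b, the beta subunit, had a signal of 226 on the MED1-null-labelled array, against 775 on the control array (log2 ratio -1.78, 3.42-fold lower). Scnn1g, the gamma subunit, had a signal of 541 on the MED1-null-labelled array, against 1423 on the control array (log2 ratio -1.39, 2.63-fold lower). The beta and gamma subunits thus lay beyond 2-fold on the same side, and of the 11621 measured genes 45 had a ratio as low as that of Scnn1b or lower, and 109 as low as that of Scnn1g, each gene itself included. Scnn1a, the alpha subunit, differed less, at 390 on the MED1-null-labelled array and 605 on the control array (log2 ratio -0.63, 1.55-fold lower). Each subunit was read by 1 probe set only, so no second probe set checks these ratios. In a culture read as a whole, fewer cells of a type and less RNA per cell cannot be told apart.

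**Figure D1:**
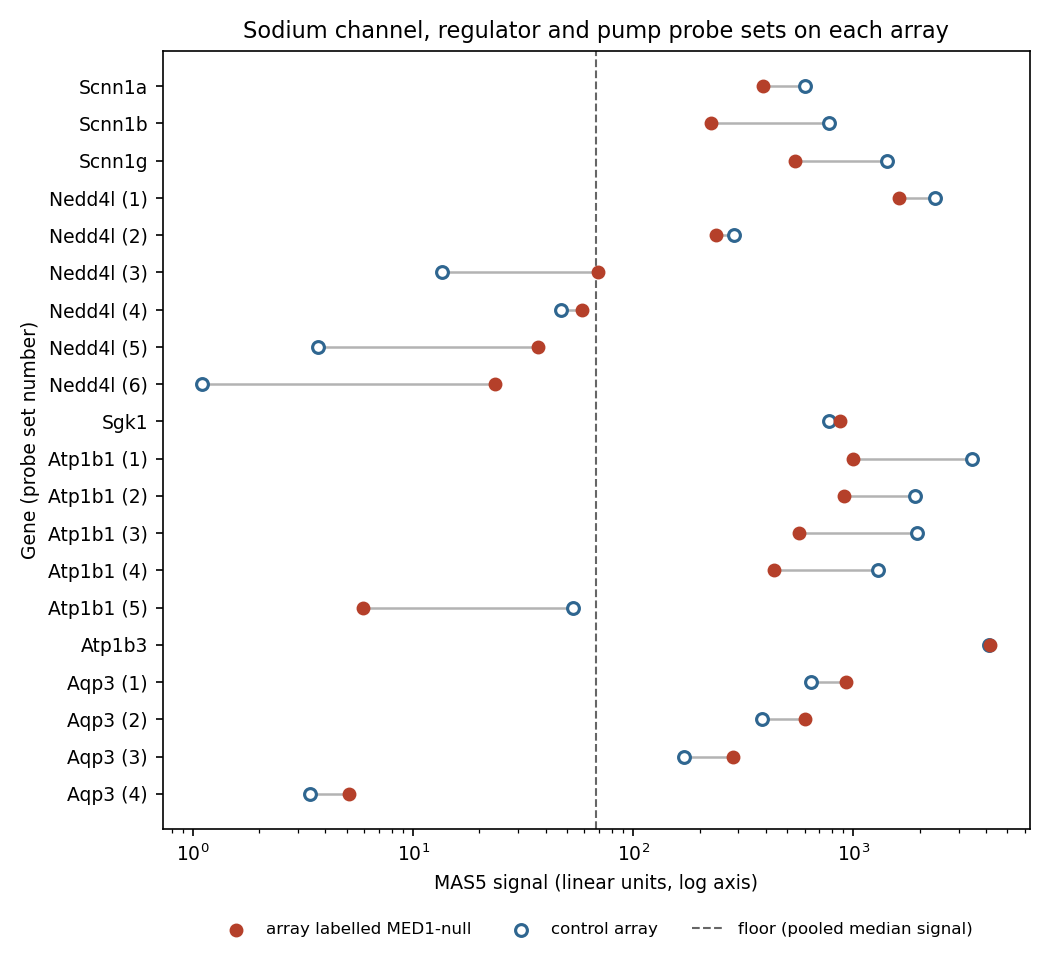
MAS5 signal (linear units on a log axis) of each of the 20 probe sets of the 8 genes, numbered within a gene where there are several. Filled points are the MED1-null-labelled array, open points the control array, and the dashed line is the floor of 67.7. All 3 channel subunits and the first 4 probe sets of Atp1b1 lie lower on the MED1-null-labelled array, and the first 3 of Aqp3 lie higher.

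Scnn1g and Scnn1b are neighbours on mouse chromosome 7, with no other protein-coding gene between them in the RefSeq gene table. The genes around the pair did not share their ratio. Of the 12 protein-coding genes nearest in order to Scnn1g, 6 on each side, 8 were measured apart from Scnn1b. None of these was 2-fold apart between the arrays, and their log2 ratios ran from -0.53 (Ubfd1) to 0.66 (Hs3st2). Usp31, the next gene on one side, read 415 on the MED1-null-labelled array and 390 on the control array. Cog7, the next on the other side, read 219 on the MED1-null-labelled array and 247 on the control array. Scnn1a lies on chromosome 6, and the 7 measured genes around it had log2 ratios from 0.03 to 0.25, all above that of Scnn1a. Around Atp1b1, on chromosome 1, 6 of 7 measured neighbours had a log2 ratio below 0, with a median of -0.30, and none was 2-fold apart. Around Nedd4l, 5 of 7 were below 0, with a median of -0.28. Its neighbours Nars (-0.94) and Malt1 (-0.94) had lower log2 ratios than Nedd4l itself (-0.55). Around Aqp3 7 of 10 were below 0, around Sgk1 1 of 4 and around Atp1b3 2 of 9. Pxylp1, near Atp1b3, was 2.37-fold lower. Over all measured genes 42.9% had a log2 ratio below 0. Whether position on the chromosome bears on these ratios was not tested.

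**Figure D2:**
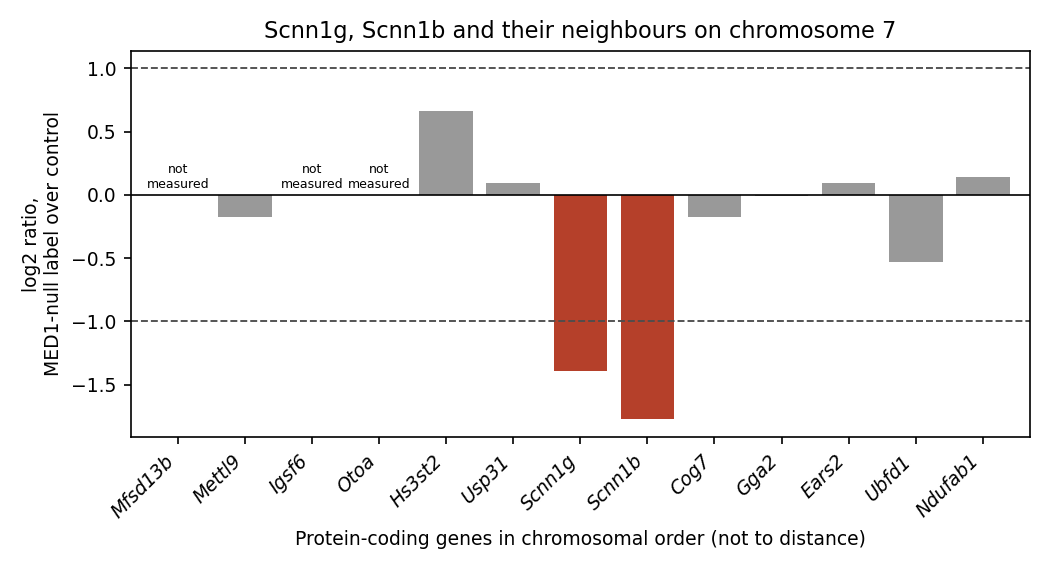
Log2 ratio of the MED1-null-labelled array over the control array (vertical axis) for Scnn1g, Scnn1b and the genes next to them in chromosomal order (horizontal axis, order only). The red bars of Scnn1g (-1.39) and Scnn1b (-1.78) reach below the dashed line of 2-fold, and the grey bars of their neighbours stay within it.

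The regulators Nedd4l and Sgk1 both lay within 2-fold, on opposite sides of 0 by the probe sets used. Nedd4l, the ubiquitin ligase that removes the channel, read 1607 on the MED1-null-labelled array and 2347 on the control array by its highest probe set (log2 ratio -0.55, 1.46-fold lower). Another read 237 on the MED1-null-labelled array and 287 on the control array, 1.22-fold lower. Both were lower by less than 2-fold. The remaining 4 of its 6 probe sets lay near or under the floor and went the other way. One of them reached the floor on the MED1-null-labelled array alone, at 69.0 against 13.6, and was at least 1.02-fold higher. The other three read 58.2, 36.8 and 23.5 on the MED1-null-labelled array, against 47.1, 3.7 and 1.1 on the control array, too low for a ratio. Sgk1, the kinase that holds NEDD4L off the channel, read 866 on the MED1-null-labelled array and 776 on the control array (log2 ratio 0.16, 1.12-fold higher). This is less than the spread between probe sets of a gene.

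The pump subunits differed from each other. Atp1b1 encodes the beta-1 subunit, which the pump needs to reach the membrane. Its highest probe set read 994 on the MED1-null-labelled array and 3447 on the control array (log2 ratio -1.79, 3.47-fold lower), and 42 of the measured genes had a ratio as low or lower, Atp1b1 included. Another 3 probe sets of Atp1b1 reached the floor. They read 906, 568 and 434 on the MED1-null-labelled array, against 1902, 1934 and 1287 on the control array, or 2.10-fold, 3.41-fold and 2.96-fold lower. All 4 measured probe sets of Atp1b1 were therefore at least 2-fold lower. The fifth, at 5.9 on the MED1-null-labelled array and 53.2 on the control array, was below the floor on both. Of the 4, 3 carry the array maker's suffix for several transcripts of the same gene and 1, the least changed, that for sequence similar to other transcripts. Atp1b3, the beta-3 subunit, read 4184 on the MED1-null-labelled array and 4134 on the control array, 1.01-fold apart, with a log2 ratio of 0.02 and of -0.05 once the arrays were rescaled to a median ratio of 1. The lower ratio of beta-1 was thus not shared by beta-3.

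Aqp3, the water and glycerol channel of the keratinocyte membrane, was the member with the highest ratio. Its 3 measured probe sets read 920, 602 and 283 on the MED1-null-labelled array, against 640, 384 and 171 on the control array. All were higher on the MED1-null-labelled array, by 1.44-fold, 1.57-fold and 1.65-fold, and none reached 2-fold. The fourth read 5.1 on the MED1-null-labelled array and 3.4 on the control array, below the floor on both.

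All 8 members were measured. By the probe set used, 3 were lower by 2-fold or more, 5 lay within 2-fold and none was higher by 2-fold or more. Over all measured genes 2.23% were lower and 1.63% higher by that much, together 3.86%. The members were chosen with these ratios known, so nothing is read from their count. Their median log2 ratio was -0.59, and that of all measured genes was 0.06. Of the 20 probe sets, 14 reached the floor on both arrays, 1 on 1 array and 5 on neither.

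**Figure D3:**
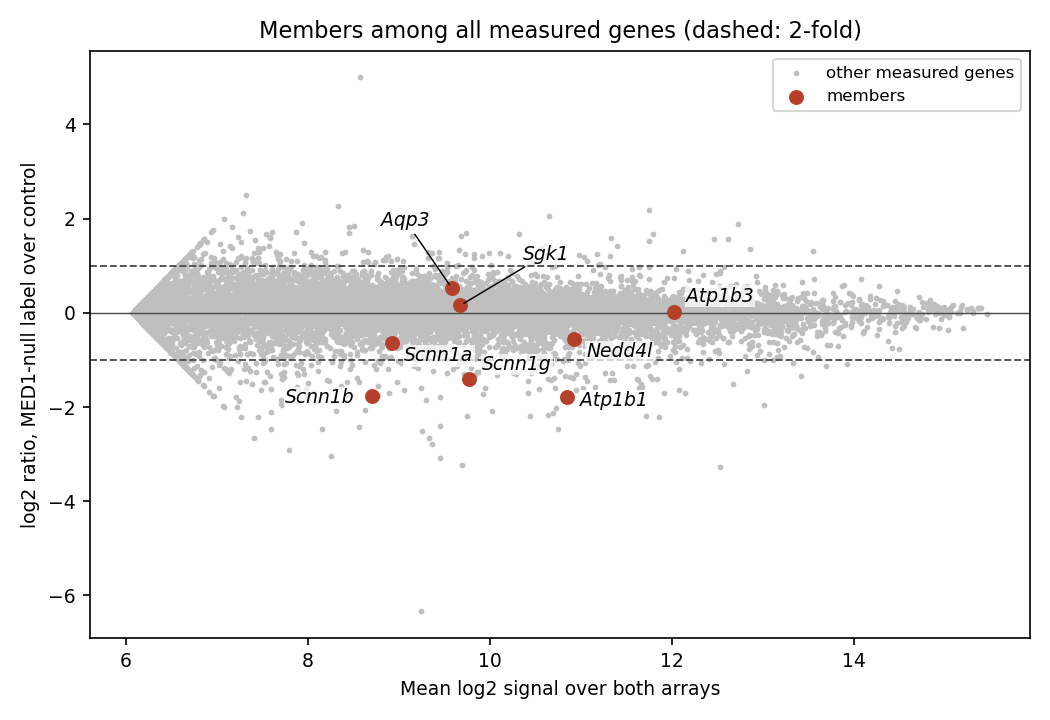
Log2 ratio of the MED1-null-labelled array over the control array (vertical axis) against the mean log2 signal of both arrays (horizontal axis) for 11621 measured genes, with the 8 members in red. Scnn1b, Scnn1g and Atp1b1 lie below the lower dashed line of 2-fold, and the other 5 members lie between the dashed lines.

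Markers of other cells differed as well. Fibroblast markers summed to 2493 on the MED1-null-labelled array and 6099 on the control array, and of 8 measured markers 2, Vim and Sparc, were at least 2-fold lower. Most of both sums came from these 2 genes, and the other 9 markers on the array summed to 480 on the MED1-null-labelled array and 788 on the control array. Of the 8 measured markers 7 had a log2 ratio below 0, against 42.9% of all measured genes, and the median was -0.77. Col3a1, Dcn and Twist2 were among the 7. They read 35.5, 35.2 and 36 on the MED1-null-labelled array, below the floor, against 121, 118 and 113 on the control array. The collagen gene Col1a1 was below the floor on both arrays. Col1a2 alone of the measured markers read higher, at 115 on the MED1-null-labelled array and 80.3 on the control array. Melanocyte markers summed to 19507 on the MED1-null-labelled array and 25056 on the control array, and of 8 measured markers Kit alone was at least 2-fold lower. Of these 8 markers 6 had a log2 ratio below 0, and the median was -0.33. Probe sets of Tyr ran from -1.26 to 0.25 in log2 ratio. Keratinocyte markers summed to 146687 on the MED1-null-labelled array and 121733 on the control array, with all 8 measured markers higher and none by 2-fold. Of 7 leukocyte markers 2 were measured, and Ptprc, the common leukocyte antigen, was below the floor on both arrays, as was the endothelial marker Pecam1. The part of these cells in the lower signals of Scnn1b, Scnn1g and Atp1b1 was not tested.

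The other genes of sodium, water and glycerol handling were read through 7 lists of 125 genes chosen by function. Of these genes 114 had a single-symbol probe set here and 89 were measured. Of the 89, 6 were at least 2-fold lower on the MED1-null-labelled array (6.74%, against 2.23% of all measured genes) and 1 was higher (1.12%, against 1.63%). The lists were also drawn up with earlier results of these arrays known, and the share is given as a description.

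Proteases that cleave the channel and their inhibitors had 8 measured members of 11. Prss8, which encodes the channel-activating protease prostasin, was lower, at 1323 on the MED1-null-labelled array and 3385 on the control array (log2 ratio -1.36, 2.56-fold lower). The other 7 lay within 2-fold, and of all measured genes 2.23% were lower by 2-fold or more. Furin, the convertase that cuts the channel on its way to the membrane, read 865 on the MED1-null-labelled array and 1203 on the control array. Tmprss4 read 692 on the MED1-null-labelled array and 931 on the control array, and Tmprss11e 942 on the MED1-null-labelled array and 720 on the control array. St14, the protease matriptase that acts with prostasin in epidermis, read 2758 on the MED1-null-labelled array and 2705 on the control array. The prostasin and matriptase inhibitor genes were near level: Spint1 was 1.12-fold lower, and Spint2 had a signal of 5857 on the MED1-null-labelled array and 6038 on the control array. Tmprss2 read 206 on the MED1-null-labelled array and 247 on the control array, with probe sets from -1.08 to -0.22 in log2 ratio. Of the 8 values 6 lay below 0, against 42.9% of all measured genes. The median of the 8 was -0.21, against 0.06 over all measured genes.

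Kinases, ubiquitin ligases and adaptors had 29 measured members of 32, of which 1 was lower by 2-fold or more and 28 lay within 2-fold, a share near the 2.23% of all measured genes. The lower gene was Usp2, a deubiquitinase known to act on the channel against NEDD4L, at 1382 on the MED1-null-labelled array and 3011 on the control array (2.18-fold lower), with both its probe sets beyond 2-fold. Tsc22d3, the corticosteroid-induced leucine zipper protein GILZ, came next at 3177 on the MED1-null-labelled array and 6155 on the control array (1.94-fold lower). Its 3 measured probe sets disagreed, with log2 ratios from -1.02 to 0.12. The paralogs of the named regulators were near level. Nedd4 read 6867 on the MED1-null-labelled array and 5694 on the control array, and Sgk3 1520 on the MED1-null-labelled array and 1567 on the control array. The NEDD4-family adaptors Ndfip1 and Ndfip2 were 1.10-fold and 1.15-fold lower, but the 3 measured probe sets of Ndfip2 ran from -0.21 to 0.82 in log2 ratio. Cav1 (caveolin) read 11042 on the MED1-null-labelled array and 7348 on the control array. Oxsr1, a kinase of the WNK pathway, was 1.37-fold lower, Wnk1 1.32-fold lower, Mllt3 1.34-fold higher and Rab11a 1.33-fold lower. Probe sets of Wnk1 and of Rab11a lay on both sides of 0. Mllt3 lay near the floor, at 98.5 on the MED1-null-labelled array and 73.4 on the control array. Its other measured probe set had a log2 ratio of 0.01. The list's median was -0.04, against 0.06 over all measured genes.

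Corticosteroid receptors, enzymes and induced genes had 16 measured members of 19. The glucocorticoid receptor gene Nr3c1 read 2049 on the MED1-null-labelled array and 2021 on the control array. The mineralocorticoid receptor gene Nr3c2 was below the floor on both. Lcn2 (lipocalin 2) was the only member beyond 2-fold, at 45.4 on the MED1-null-labelled array and 167 on the control array, at least 2.47-fold lower. Of all measured genes 2.23% were lower by 2-fold or more. The metallothionein genes Mt1 and Mt2 were 1.63-fold and 1.52-fold lower, and the probe set of Mt1 carries the suffix for sequence shared between genes. Hsd11b1, which activates glucocorticoids, read 467 on the MED1-null-labelled array and 721 on the control array, and Hsd11b2, which inactivates them, 79.1 on the MED1-null-labelled array and 103 on the control array. Dusp1 was 1.32-fold lower. Common glucocorticoid targets stood on both sides of 0, with Per1 1.21-fold higher, Klf9 1.18-fold lower and Fkbp5 1.10-fold lower. Probe sets of some of these genes disagreed. Those of Klf9 ran from -1.11 to 0.16 in log2 ratio, those of Fkbp5 from -0.66 to -0.13 and those of Zbtb16 from 0.04 to 1.10. The list's median was -0.10, against 0.06 over all measured genes. It was 0.03 when probe sets with the suffix _a, _s or _x were left out.

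No other pump subunit or FXYD gene, whose products modulate the pump, reached 2-fold. Of 16 listed, 8 were measured, and of all measured genes 3.86% were at least 2-fold apart. Fxyd6 read 243 on the MED1-null-labelled array and 445 on the control array (1.84-fold lower). Fxyd1 read 121 on the MED1-null-labelled array and 36.1, below the floor, on the control array (at least 1.78-fold higher). Fxyd3, which is expressed in epithelia, was 1.07-fold higher at 7915 on the MED1-null-labelled array and 7393 on the control array, and Fxyd5 was 1.38-fold lower. Atp4b, of the gastric proton pump, was 1.41-fold higher, while Fxyd4 and Atp12a lay near the floor, at 85.3 and 73.1 on the MED1-null-labelled array against 65.5 and 34.4 on the control array. The list's median of 0.10, against 0.06 over all measured genes, became -0.04 when the floor was raised to the 75th percentile.

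Aquaporins and glycerol genes had 14 measured members of 21, of which 3 were lower by 2-fold or more, against 2.23% of all measured genes, and 11 lay within 2-fold. Aqp9, which like Aqp3 carries glycerol, read 99.1 on the MED1-null-labelled array and 283 on the control array (2.85-fold lower). Its other measured probe set had a log2 ratio of -0.66. Gpat3, an acyltransferase that puts fatty acid on glycerol phosphate, read 264 on the MED1-null-labelled array and 858 on the control array (3.25-fold lower). Lipe, the hormone-sensitive lipase that helps release glycerol from stored fat, read 1143 on the MED1-null-labelled array and 2881 on the control array (2.52-fold lower). Pnpla2, the lipase that acts before it, was 1.55-fold lower and Pld1 1.49-fold lower, while Aqp8 read 123 on the MED1-null-labelled array and 82.4 on the control array. Pld2, a phospholipase D known to work with AQP3 in keratinocytes, read 1094 on the MED1-null-labelled array and 1043 on the control array. This was near level, by a probe set with the suffix _x, and its other measured probe set had a log2 ratio of 0.60. Aqp1, Aqp4, Aqp5, Aqp7 and Aqp12 were below the floor on both arrays. The higher Aqp3 thus stood beside a lower Aqp9. The list's median was -0.01, against 0.06 over all measured genes, and lay between -0.07 and 0.07 under the alternatives tried.

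Among 14 measured genes of other ion transport, of 21 listed, Kcnn4, a calcium-activated potassium channel, was the only one beyond 2-fold, at 3094 on the MED1-null-labelled array and 1325 on the control array (2.34-fold higher). Both its probe sets were beyond 2-fold. Of all measured genes 1.63% were higher by 2-fold or more. Lrrc8c, a subunit of the volume-regulated anion channel, was 1.87-fold higher at 3083 on the MED1-null-labelled array and 1652 on the control array, while its partner Lrrc8a was 1.12-fold higher and Lrrc8d 1.23-fold lower. The potassium channel gene Kcnk7 was 1.73-fold higher, and Slc9a3r1, a scaffold of membrane transporters, 1.73-fold lower. Kcnma1 read 42.3, below the floor, on the MED1-null-labelled array and 103 on the control array, at least 1.51-fold lower, and Clcn3, 1.37-fold lower, had probe sets on both sides of 0. Slc12a2, the sodium-potassium-chloride cotransporter, read 2048 on the MED1-null-labelled array and 2258 on the control array, and Cftr was below the floor on both. The list's median was -0.20, against 0.06 over all measured genes. The 5 acid-sensing channel genes, relatives of the Scnn1 genes, were all below the floor on both arrays.

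**Figure D4:**
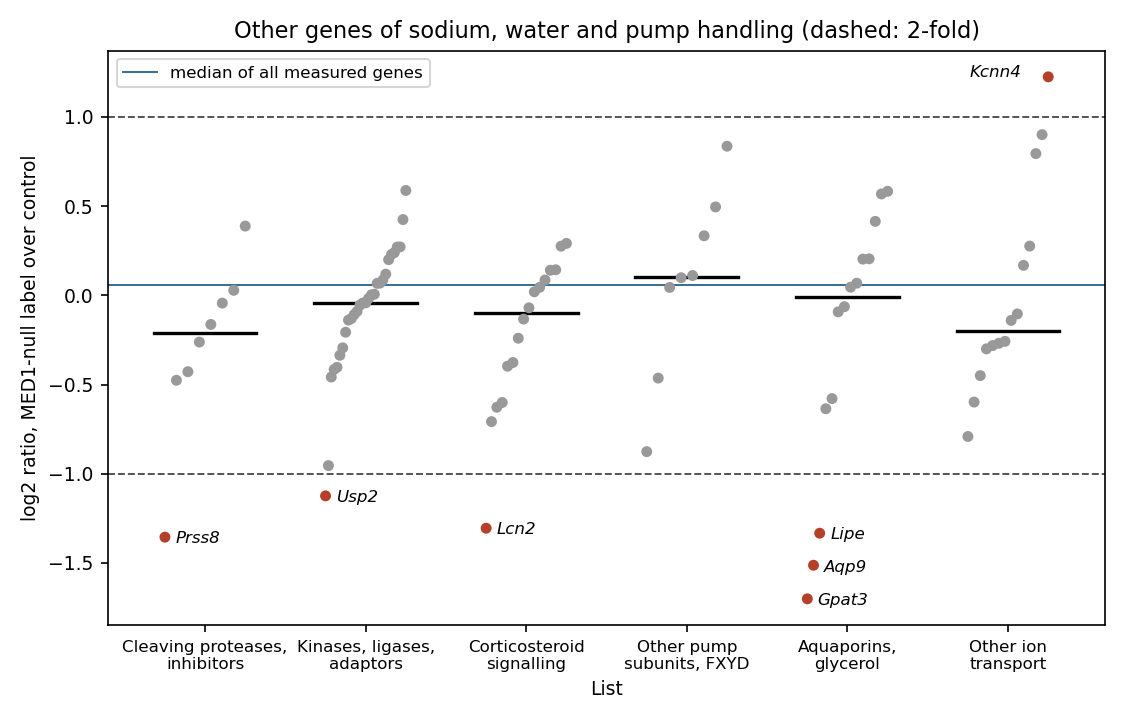
Log2 ratio of the MED1-null-labelled array over the control array (vertical axis) for each measured gene of 6 lists (horizontal axis), with the list median as a black bar and the median of all measured genes, 0.06, as a blue line. The genes beyond the dashed 2-fold lines are named: Prss8, Usp2, Lcn2, Lipe, Aqp9 and Gpat3 lie below and Kcnn4 above.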

How the data were processed

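The authors deposited linear MAS5 signal intensities, 1 for each probe set and array, per the submitters' processing notes. The version of the software is not given in the sources used here. Detection calls did not enter. Of 45101 probe sets, 64 controls were set aside. By GEO's annotation of the platform, 34945 of the rest name a single gene and were used, 932 name several genes and 9160 name no gene. Signals under 67.7 were raised to that floor, log2 was taken, and the control array was subtracted from the MED1-null-labelled array. Each gene was represented by its probe set with the highest mean signal. A value with 1 array at the floor is a bound, written "at least". The median signal was 71.4 on the MED1-null-labelled array and 64.1 on the control array, and the 3′ over 5′ signal ratio of Gapdh was 0.767 and 0.762, and that of the transferrin receptor 2.37 and 1.76, on these arrays.

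No test was possible. The members, the lists and the rule for named genes were chosen with earlier results of these data known. From each list, genes at least 2-fold apart and the 6 with the ratio farthest from 0 were named, and a few more after seeing their values. The counting was tested on simulated data, with differences larger than 2-fold planted only in genes with high signals on both arrays. Recovery at lower signals or near 2-fold was not checked. Neighbouring genes and motifs were read from RefSeq tables (GRCm38.p6) with Python 3.11.15 and pandas 2.3.3, an analysis added after the data were seen. Protein sequences were not used here. Alternatives changed the floor, the scaling or the choice of probe set.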

Additional observations from a re-analysis of the deposited data

How the results depend on the processing

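Under 8 alternatives, 62 of the 63 values of the 8 members stayed within 1 SD of the spread between probe sets. The exception was Scnn1b when the floor was raised to the 75th percentile, which lifted its signal on the MED1-null-labelled array and left a log2 ratio of -0.83, so that 2 members instead of 3 were at least 2-fold lower. Atp1b1 had no value when probe sets with the suffix _a, _s or _x were left out, since of its 4 measured probe sets 3 carry _a (transcripts of the same gene) and 1 _x. Over all genes, 1120 were at least 2-fold higher and 934 lower under a floor at the 25th percentile. The counts were 49 higher and 106 lower with it at the 75th, and 2226 higher and 1896 lower without a floor, since low signals then count. All 48 list medians stayed within that SD. Of 56 counts of list genes beyond 2-fold, 41 stayed within 1.5 times the value given and 15 did not, and these counts were of 6 genes or fewer. No paired analysis was possible because each group has 1 array. No array could be left out for the same reason, and low signals, near the floor, limit what can be read.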
